A study of Mus musculus with 21 samples.

Results

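The genes described here encode the enzymes that conjugate, oxidize or hydrolyse drugs, steroids, bile acids and reactive aldehydes: the UDP-glucuronosyltransferases (UGT), the sulfotransferases (SULT), the aldehyde dehydrogenases (ALDH) and the carboxylesterases (CES). They were taken by symbol, as every protein-coding gene of the mouse mm9 annotation whose symbol begins with Ugt1a, Ugt2, Sult, Aldh or Ces followed by a digit. This gave 76 of 22367 protein-coding genes (75 symbols, since Ces5a has 2 entries): 9 UGT1A, 9 UGT2, 17 SULT, 20 ALDH and 21 CES genes. The rule uses symbols and no measured value. Each gene was given a window of its body plus 10 kb on each side, and the peaks of vitamin D receptor (VDR) ChIP-seq and of ATAC-seq that overlap the window were read from the colon, the small intestinal (SI) crypt and the SI villus.

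UGT enzymes sit in the endoplasmic reticulum and transfer glucuronic acid from UDP-glucuronic acid, and the Ugt1a genes join alternative first exons to one shared set of later exons. SULT enzymes are mostly cytosolic and transfer sulfate from the activated sulfate PAPS. ALDH enzymes oxidize aldehydes to carboxylic acids, among them retinaldehyde to retinoic acid, and CES enzymes are serine hydrolases that split ester drugs and lipid esters. The gut epithelium carries out this chemistry on food, drugs and bile acids before they reach the liver. VDR is the nuclear receptor of 1,25-dihydroxyvitamin D, pairs with RXR, and binds DNA at direct repeats of a six-letter half-site, with the spacing called DR3 as its best known element. ATAC-seq marks chromatin that is open to a transposase.

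The series holds 12 VDR ChIP-seq samples and 9 ATAC-seq samples of C57BL/6 mice (C57BL/6J in the methods text), with 4 VDR and 3 ATAC samples each for colon, SI crypt and SI villus. Colon was the scraped epithelium of the whole colon, not split into crypts and surface, whereas crypts and villi were separated from the proximal small intestine, so segment and fractionation cannot be told apart in a colon comparison. All 12 ChIP samples came from mice injected with 10 ng/g 1,25(OH)2D3 and killed 1 h later, labelled as 4 to 6 weeks old although the methods text gives an older age, and the immunoprecipitation combined 2 anti-VDR antibodies. No vehicle-treated or input ChIP sample was analysed here, so an effect of the hormone cannot be read from these values. The ATAC mice are labelled as 90 days old. The study's text describes them as chow-fed and calls the ATAC tissue untreated, while the extraction text attached to the ATAC samples mentions the 1 h injection, and this conflict could not be settled. The labels do not tie samples to animals, so the spread and the p-values below are those between samples.

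The VDR libraries held 10588783 to 17970894 fragments, of which 3100376 to 14716273 remained once duplicates were removed, and 1136 to 13381 peaks were called per sample. The ATAC libraries held 32767083 to 62692175 tags and 21269 to 57825 peaks. SI crypt VDR sample 1 stood apart, with 13381 peaks from the fewest fragments kept (3100376), against 1136 to 2480 peaks in the other SI crypt samples. VDR fragments kept numbered 9127982 to 14716273 in colon, 3100376 to 9021688 in SI crypts and 4858968 to 12479695 in SI villi. Colon ATAC samples had fewer peaks (21269 to 32853) than SI crypt (35220 to 57825) and SI villus samples (43090 to 51037). The value used throughout is the MACS2 fold enrichment, the pileup at a peak's summit over the local background of its own sample. A missing peak means that none passed a q-value of 0.05, not that no protein was bound, and each value averages over all cells of a preparation. Marker genes were checked by their ATAC peaks. All 6 epithelial markers had a pooled peak called in at least 2 samples in colon, SI crypt and SI villus, the 6 small intestinal markers had one in 3, 6 and 6 cases, and the 6 colon markers in 6, 5 and 5. Lct had no ATAC peak in any colon sample and Car1 none in any SI sample. Of the 6 immune markers, 3 in colon, 3 in SI crypts and 4 in SI villi had such a peak, and Ptprc had no peak in any ATAC sample.

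The strongest VDR binding among these genes was at 2 carboxylesterase genes of the Ces2 cluster on chromosome 8, and these were the only sites of the 76 genes at which a VDR peak was called in all 12 samples. The Ces2a site (mm9 chr8:107255697-107256717) lay 1.70 kb upstream of the Ces2a start, outside any exon of the gene. The Ces2e site (chr8:107450068-107450653) had its summit 0.201 kb past the Ces2e start, within the promoter window of 1 kb on each side of it. The 200 bases centred on the 2 summits, as they stand on the plus strand of the NCBIM37 (mm9) reference, are given because these sites carry the result that all compartments share. Capitals mark every nuclear receptor half-site on either strand, that is AGGTCA, also with G as its first letter or T in place of its second G.
Ces2a, chr8:107256107-107256306: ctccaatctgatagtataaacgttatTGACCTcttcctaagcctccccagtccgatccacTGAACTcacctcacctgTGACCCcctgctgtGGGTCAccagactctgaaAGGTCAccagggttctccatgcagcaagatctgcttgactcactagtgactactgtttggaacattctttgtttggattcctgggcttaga
Ces2e, chr8:107450261-107450460: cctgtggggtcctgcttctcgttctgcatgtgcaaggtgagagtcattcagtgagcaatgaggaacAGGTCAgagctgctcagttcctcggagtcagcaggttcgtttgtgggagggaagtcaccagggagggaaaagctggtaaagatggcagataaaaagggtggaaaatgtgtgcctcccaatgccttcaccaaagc
The Ces2a window held 5 half-sites and the Ces2e window 1. Neither held an exact DR3.

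At Ces2a, VDR fold enrichment was 12.4, 16.5, 9.72 and 12.7 in the colon samples. It was 22.8, 24.7, 10.7 and 14.8 in the SI crypt samples. In the SI villus samples it was 26.9, 29.4, 12.8 and 9.32. All 3 compartments overlapped, and the 2 highest values of each SI compartment were samples 1 and 2. The means were 12.8 ± 2.78 in colon, 18.3 ± 6.64 in SI crypts and 19.6 ± 10.0 in SI villi (SD, n = 4 each), and no pair of compartments differed beyond this spread (two-sided exact permutation tests, p = 0.229 for colon against SI crypt, 0.314 for colon against SI villus and 0.743 for SI crypt against SI villus, or 0.625 when paired by number, with SI villus higher in 3 of 4 pairs). In the pooled lists the peak reached 14.6, 19.97 and 20.9 in colon, SI crypt and SI villus, and by q-value it ranked 115 of 22882, 45 of 12702 and 56 of 18078 VDR-binding peaks. Chromatin at this site was open in all 9 ATAC samples, at 9.64, 10.6 and 12.9 in colon, 9.86, 6.77 and 8.49 in SI crypts, and 7.56, 9.29 and 6.03 in SI villi. A weaker VDR peak 9.18 kb past the Ces2a start was called in 2 colon samples (3.34 and 2.92) and 1 SI villus sample (2.67), with no ATAC peak there.

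At the Ces2e promoter, VDR fold enrichment was 8.03, 17.4, 14.2 and 16.0 in the colon samples. It was 14.7, 19.0, 7.75 and 12.7 in the SI crypt samples. In the SI villus samples it was 31.9, 28.7, 12.2 and 15.5. The compartments again overlapped, with means of 13.9 ± 4.12 in colon, 13.6 ± 4.68 in SI crypts and 22.1 ± 9.69 in SI villi (SD, n = 4 each; two-sided exact permutation tests, p = 0.943 for colon against SI crypt, 0.257 for colon against SI villus and 0.200 for SI crypt against SI villus). Deviations from the group means correlated only weakly between SI crypt and SI villus samples of the same number. A colon and SI crypt pair reached a value within the same range, and samples of unlike number were not compared. The pairing is therefore not established. When paired by number, Ces2e was higher in SI villus in 4 of 4 pairs, by a mean of 8.51 ± 6.48 (SD of the pair differences). A paired exact permutation test, added after these values were seen, gave p = 0.125, the smallest that 4 pairs allow. The pooled peaks ranked 165, 179 and 92 in their lists. Open chromatin was not equally even: at this site an ATAC peak was called in 1 colon sample (4.04), in all 3 SI crypt samples (4.67, 6.16 and 5.83) and in 2 SI villus samples (5.13 and 4.55). The colon samples thus held VDR peaks at Ces2e in all 4 ChIP libraries, while 1 of 3 ATAC libraries had a peak there.

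**Figure D1:**
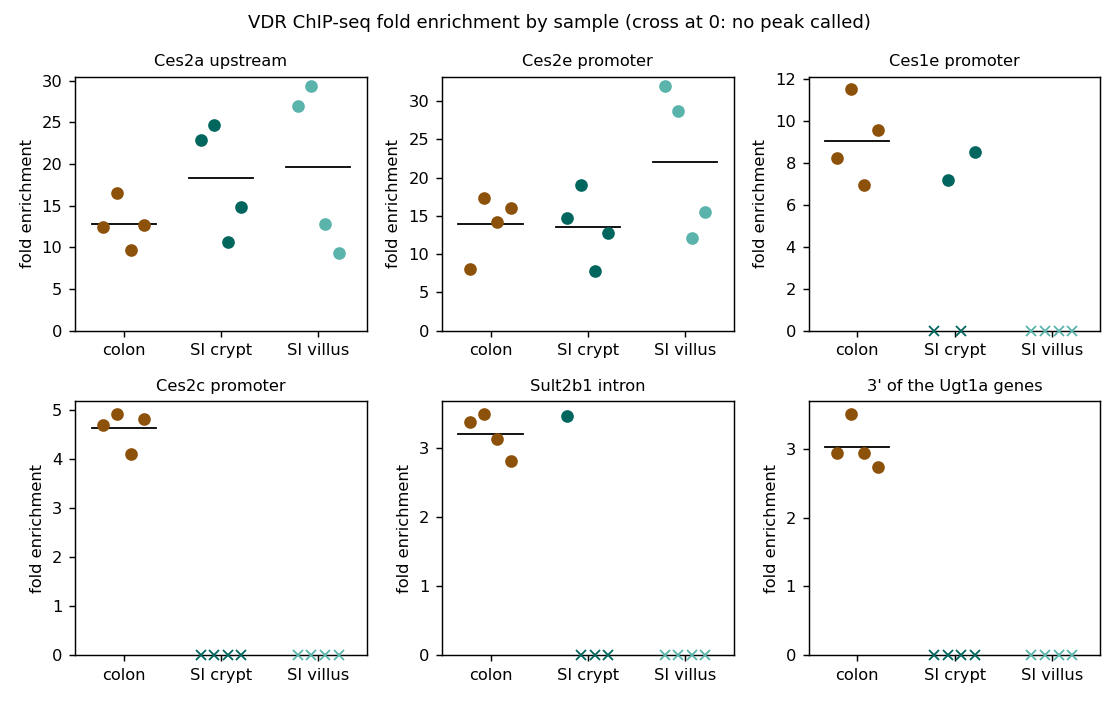
VDR ChIP-seq fold enrichment (y axis, linear from 0) of each sample at 6 sites, by compartment on the x axis; dots are samples, crosses at 0 are samples with no peak called, and black lines are means over samples shown only where all 4 have a peak. Ces2a and Ces2e have a peak in all 12 samples, while the Ces2c promoter and the site 3′ of the Ugt1a genes have one in the 4 colon samples and in no SI sample.

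Of the 76 genes, 38 (50.0%) had a pooled VDR peak in the window in colon, against 51.5% of all protein-coding genes. In SI crypt 33 (43.4%) had one, against 38.9% of all genes, and in SI villi 42 (55.3%), against 44.8%. Counting only pooled peaks that were also called in at least 2 single samples of the compartment (called supported below), 22 genes (28.9%) had one in colon, against 20.3% of all genes. In SI crypt 6 (7.89%) had one, against 9.91%, and in SI villi 19 (25.0%), against 18.5%. The pooled shares lay near the background, and 9 of the 22 genes in colon and 9 of the 19 in SI villi were UGT1A genes, whose windows share a single supported peak in each of these compartments. Counted as distinct peaks, the genes held 86 in colon, 48 in SI crypts and 85 in SI villi, of which 16 (18.6%), 6 (12.5%) and 12 (14.1%) were supported, against 22.8%, 16.9% and 24.4% of all VDR-binding peaks. Their median fold enrichment was 2.93, 3.31 and 3.01, against 3.36, 3.84 and 3.61 for all pooled peaks. The SI villus count rested on 2 libraries: without sample 1 it was 3 genes and without sample 2 it was 7. The SI crypt count was 3 without sample 1 or without sample 4. Supported peaks with the start of a member gene as the nearest gene start numbered 12, 4 and 8.

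By family, supported VDR peaks were found for 9, 0 and 9 of the 9 UGT1A genes in colon, SI crypt and SI villus, for 1, 0 and 0 of 9 UGT2 genes, for 1, 1 and 0 of 17 SULT genes, for 5, 1 and 5 of 20 ALDH genes, and for 6, 4 and 5 of 21 CES genes. Gene length differs between families, with a median of 116751 bp for UGT1A, 14312 bp for UGT2, 29060 bp for SULT, 28940.5 bp for ALDH and 10177 bp for CES, so the windows do not offer equal room for peaks. The CES genes had the highest pooled values (up to 17.6, 19.97 and 26.4), and the next highest family, ALDH, reached 7.14, 7.12 and 10.96. Merged across compartments, the supported peaks formed 26 sites.

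**Figure D2:**
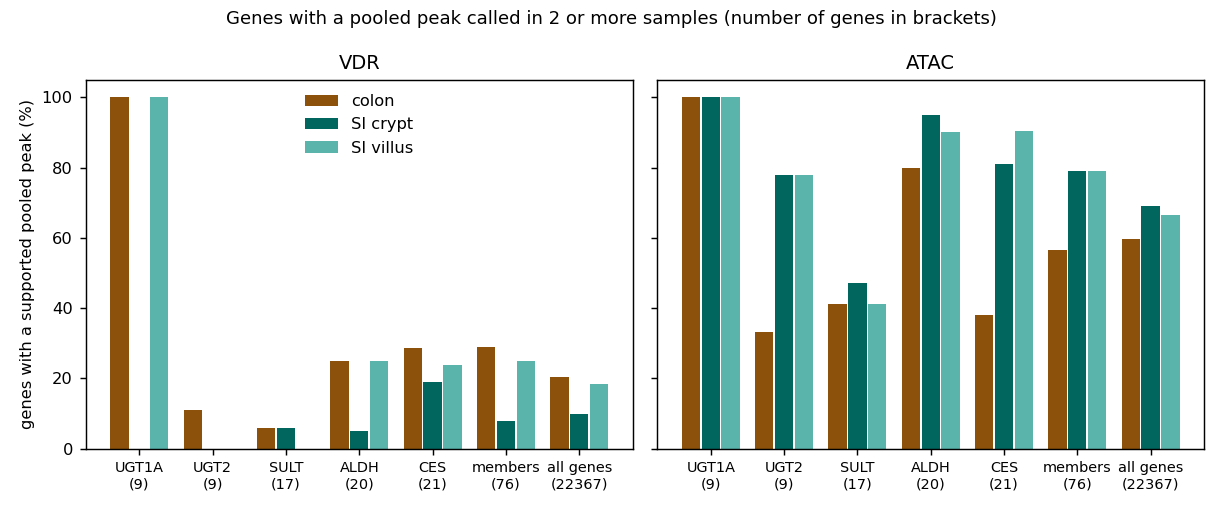
Share of the genes of each family (y axis, %) with a pooled peak that was also called in at least 2 single samples, for VDR (left) and ATAC (right), with colon, SI crypt and SI villus side by side and all 22367 genes at the right of each panel. For VDR, UGT1A stands at 100% in colon and SI villus through one shared peak, and for ATAC the UGT2 and CES bars are lower in colon (33.3% and 38.1%) than in SI crypts (77.8% and 81.0%) and SI villus (77.8% and 90.5%).

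Besides Ces2a and Ces2e, the carboxylesterase cluster held VDR sites at the promoters of Ces1d, Ces1e and Ces2c. Ces1d encodes a lipase of lipid droplets, and Ces2c an intestinal esterase. The Ces1e promoter site (chr8:95753193-95753847) was called in all colon samples, at 8.24, 11.5, 6.93 and 9.55. It was called in SI crypt samples 2 and 4 (7.16 and 8.54) and in no SI villus sample. The pooled lists nonetheless held a peak there in all 3 compartments, at 11.4 in colon, 9.71 in SI crypts and 5.81 in SI villi. ATAC peaks ran the other way round: none was called in a colon sample, while SI crypt had 6.09, 5.81 and 9.39 and SI villus 7.76, 5.81 and 4.36.

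The Ces2c promoter site (chr8:107370737-107371847, also inside the Ces2b window) was called in the 4 colon samples at 4.71, 4.93, 4.10 and 4.82 and in no SI sample. In the pooled lists it reached 3.67 in colon, 4.62 in SI crypts and 3.39 in SI villi, so the pooled reads showed a peak in all compartments. Its chromatin was open in all 9 ATAC samples, at 9.71, 14.9 and 17.3 in colon, 9.71, 8.94 and 10.3 in SI crypts, and 10.2, 10.4 and 6.28 in SI villi. The Ces1d promoter site (chr8:95721769-95722392) was called in colon samples 2, 3 and 4 (6.90, 6.71 and 8.07), in no SI crypt sample, and in SI villus samples 1 and 4 (3.57 and 6.67). ATAC peaks at Ces1d were called in 1 colon sample (4.36), 3 SI crypt samples (6.98, 4.76 and 6.45) and 3 SI villus samples (6.36, 4.27 and 4.25). An intron site of Ces1c was called in SI villus samples 1 and 2 only (4.77 and 5.53). A site near Ces4a, 18.0 kb from the nearest gene start (Cbfb), was called in colon sample 4 (4.92), SI crypt samples 1 and 4 (3.53 and 6.11) and SI villus sample 2 (4.38). The mouse Ces1 and Ces2 genes are tandem copies of high similarity, and the sources used here do not state how reads matching several copies were placed, so which copy a peak belongs to is uncertain.

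For the UGT genes, the supported VDR sites were low and lay away from UGT starts. The site 3′ of the Ugt1a genes (chr1:90116666-90117632, 8.62 kb past the Ugt1a1 start and past the shared exons) was called at 2.94, 3.52, 2.95 and 2.74 in the colon samples and in no SI sample. Its nearest gene start was that of Heatr7b1, 6.41 kb away, and the pooled values were 2.74 in colon and 1.86 in SI crypts, with no pooled peak in SI villi. ATAC peaks overlapped it in all 9 samples, at 6.14 to 7.25 in colon, 9.14 to 11.6 in SI crypts and 6.75 to 8.12 in SI villi. The second Ugt1a site (chr1:90101873-90102252) lay in an intron 0.285 kb from the start of Dnajb3 and was called in SI crypt sample 1 (7.73) and SI villus samples 1 and 2 (5.35 and 4.25), not in colon. No Ugt1a gene had a VDR peak within 1 kb of its start in the pooled lists. Ugt1a1 encodes the enzyme that conjugates bilirubin. Of the UGT2 genes, Ugt2b34 alone had a supported site, 18.3 kb past its start, in colon samples 1, 2 and 3 (3.31, 3.97 and 3.40). The highest pooled UGT2 peak, at 7.03 in colon, lay 3.98 kb upstream of the Ugt2b34 start and was called in colon sample 2 alone (10.2).

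Among the sulfotransferases, Sult2b1, which sulfates cholesterol and related hydroxysteroids, was the only gene with a supported VDR site. Its intron site (chr7:52985362-52987220) was called at 3.38, 3.51, 3.14 and 2.82 in the colon samples. It was called in SI crypt sample 1 (3.47) and in no SI villus sample. No ATAC peak lay there in any sample. A second site in the Sult2b1 window, called in colon sample 1 (3.31) and SI crypt samples 1 and 4 (3.30 and 3.60), had its summit 0.069 kb from the start of the neighbouring gene Fam83e. Sult1c1, Sult2a1, Sult2a2, Sult2a4, Sult2a5, Sult2a6 and Sult3a1 had no pooled peak of either assay in any compartment, as did both Ces5a entries and Ugt2b37. These made up 10 of the 76 genes.

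The ALDH sites were spread over 7 genes, and the strongest were in introns. Aldh1l1, which encodes 10-formyltetrahydrofolate dehydrogenase of folate metabolism, had 2 intron sites with different patterns. The site 6.08 kb past its start (chr6:90442141-90442853) was called in SI villus samples 1, 2 and 4 (7.64, 9.96 and 10.6), in SI crypt sample 4 (6.58) and in no colon sample. ATAC peaks at this site followed the same order, with none in colon, 5.07 and 3.70 in SI crypt samples 1 and 3, and 11.03, 8.82 and 7.42 in SI villi. The site 84.0 kb past the start (chr6:90519922-90520826) was called in colon samples 2, 3 and 4 (6.24, 4.73 and 4.70), SI crypt samples 1 and 2 (4.69 and 4.79) and SI villus sample 1 (3.58), and no ATAC sample had a peak there.

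Aldh5a1, which encodes succinic semialdehyde dehydrogenase, had an intron site 22.6 kb past its start (chr13:25006796-25007243) in colon samples 2 and 4 (6.01 and 9.46) and SI villus samples 1 and 4 (7.90 and 7.04), in open chromatin in 3 colon, 2 SI crypt and 3 SI villus ATAC samples. Aldh4a1, an enzyme of proline breakdown in mitochondria, had a site 7.27 kb upstream of its start (chr4:139171240-139171777) in colon samples 2, 3 and 4 (5.77, 4.58 and 7.57) and in no SI sample, without an ATAC peak in any sample. It also had 3 low sites, 6.79 to 30.5 kb past its start, each called in SI villus samples 1 and 4 (2.09 to 3.72) and SI crypt sample 1 (3.17 to 3.24). Aldh2, the mitochondrial enzyme that clears acetaldehyde, had an intron site 9.49 kb past its start in colon samples 2, 3 and 4 (6.91, 4.39 and 4.69) and a site near the start of Acad12 in colon samples 2 and 4 (3.95 and 4.46). Aldh9a1, whose enzyme serves carnitine synthesis, had a promoter site in 1 colon sample (3.94), 1 SI crypt sample (7.47) and SI villus samples 1 and 2 (6.09 and 6.54). Aldh3b1 had an intron site in colon samples 3 and 4 (4.31 and 4.69) and a second site 0.722 kb from the start of Unc93b1, and the Aldh1l2 site lay 0.308 kb from the start of A230046K03Rik.

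**Figure D3:**
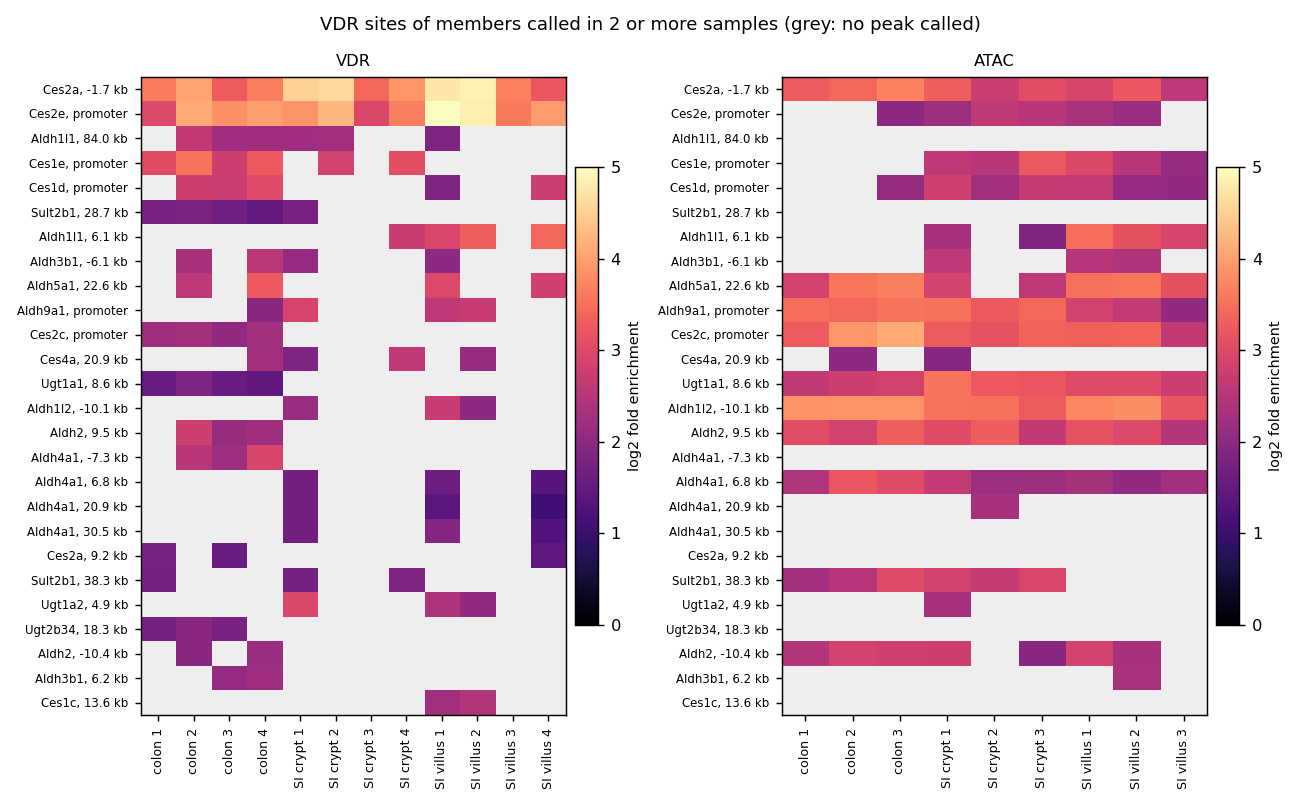
Log2 fold enrichment (colour) of the 26 VDR sites (rows, labelled by the nearest member gene and the distance of the summit from its start) in the 12 VDR samples (left) and of ATAC peaks at the same sites in the 9 ATAC samples (right), with grey where no peak was called. The Ces2a and Ces2e rows are filled across all 12 VDR columns, most other rows have 2 to 6 filled VDR cells, and several colon-filled VDR rows have no ATAC peak.

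No exact DR3, DR1, DR4 or ER6 element (direct or everted repeats of the half-site, which share its letters) lay within the 200 bases around the supported summits of these genes. Among all supported VDR summits, 4.10% in colon, 6.06% in SI crypts and 3.86% in SI villi held an exact DR3. A count of 0 among 16, 6 and 12 summits therefore says little. An exact DR3 was found at 0 of 86 VDR summits in colon, 1 of 48 in SI crypts and 0 of 85 in SI villi, against 2.05%, 2.31% and 1.69% of all VDR summits. Allowing 1 mismatch, which was tried after the exact counts were seen, gave 5 (5.81%), 2 (4.17%) and 5 (5.88%), against 10.4%, 9.68% and 8.25% of all summits. Among supported summits alone it gave 4 of 16, 0 of 6 and 2 of 12, against 19.3%, 24.3% and 17.2% of all supported summits. For DR4, 1 mismatch gave 1 of 16, 1 of 6 and 1 of 12, against 7.64%, 9.46% and 7.08% of all supported summits. The Ces2a window printed above held 2 such DR4 matches and the Ces2e window 0. At least 1 half-site lay at 52.3%, 43.8% and 35.3% of the summits of these genes, against 56.8%, 46.1% and 48.1% of all. The 5 supported sites with a DR3 of 1 mismatch are printed because they are the nearest matches to the known VDR element among these genes, with the 15 letters of the match in capitals and in the direction in which it reads as a direct repeat.
Aldh1l1, chr6:90442466-90442520, plus strand: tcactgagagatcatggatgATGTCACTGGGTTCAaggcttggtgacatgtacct
Aldh1l1, chr6:90520388-90520442, plus strand: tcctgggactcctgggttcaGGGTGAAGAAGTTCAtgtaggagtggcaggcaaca
Aldh5a1, chr13:25006941-25006995, plus strand: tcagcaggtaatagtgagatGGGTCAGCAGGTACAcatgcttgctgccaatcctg
Aldh4a1, chr4:139171409-139171443, plus strand: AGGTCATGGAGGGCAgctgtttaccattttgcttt
Sult2b1, chr7:52986217-52986271, minus strand: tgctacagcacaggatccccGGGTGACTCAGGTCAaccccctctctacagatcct
The match lay 4 bases from the SI villus summit in the Aldh1l1 site 6.08 kb past the start and 2 bases from the summit in Aldh5a1, and 41 to 93 bases from it in the others. Of the other motifs searched on both strands, TTGCGTG for XRE, TTTATGG for CDX2, AGATAAG for the GATA factors, and ARE and HNF1 by their consensus, the CDX2 letters were found at the Ces2c promoter and no other match lay at a supported summit, where 2.89% of all colon VDR summits held CDX2. Among all colon summits XRE was held by 0.673%, GATA by 2.42%, ARE by 2.97% and HNF1 by 0.0262%, while DR1, DR4 and ER6 were held by 0.485%, 0.979% and 0.144%. A match of letters is a description, and a window without one says only that these letters are not in it.

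Across genes, VDR values were compared with limma on log2 of the highest fold enrichment in the window, with the value 1 given to a sample without a peak. The fit held 9407 genes with a peak in at least 2 samples, 37 of them from these families, since genes without 2 peaks could not enter. No member passed an adjusted p of 0.05 (Benjamini-Hochberg over all genes) for colon over SI crypt, colon over SI villus or SI crypt over SI villus, where 0.181%, 0.298% and 0% of all genes did (17, 28 and 0 genes). At an unadjusted p under 0.05, 5 (13.5%), 5 (13.5%) and 0 members passed by limma, against 575 (6.11%), 877 (9.32%) and 225 (2.39%) of all genes tested. In each colon comparison the 5 included both Ces2b and Ces2c, which had identical values. The median log2 difference was 1.01, 0.62 and -0.39 over the 37 members and 0.08, -0.04 and -0.10 over all genes, with the 9 Ugt1a values the same measurement and equal to the member medians. Without the Ugt1a genes the medians over the other 28 were 0.02, 0.15 and -0.01. These medians depended on scaling. With quantile normalization they were 0.34, 0.46 and 0.15 over the members and -0.05, -0.02 and 0.04 over all genes, so that the sign for SI crypt over SI villus turned, and 83, 199 and 0 of all genes passed (56.6% and 55.8% of them higher in colon, against 23.5% and 17.9% without it), none of them a member. With equal peak numbers 4 members could be tested, the median over all genes was -0.15, -0.20 and 0.00, and 63, 162 and 13 of all genes passed (41.3%, 30.9% and 7.69% of them higher), again with 0 members. Ces2b and Ces2c, which share the Ces2c promoter peak, had the smallest p-values, at a log2 difference of 2.21 (SE 0.84; limma, adjusted p = 0.576 over SI crypt and 0.372 over SI villus). Without colon sample 1, 2 of 37 members passed for colon over SI villus. In that fit 166 of 9369 genes (1.77%) passed, 86.7% of them higher in colon. The 26 sites were taken for being called in at least 2 samples of a compartment, so a difference at a site called in one compartment alone follows from that choice, and tests between compartments are given only for Ces2a and Ces2e, which every compartment supported. All colon samples kept more fragments than any SI crypt sample, whereas the ranges of colon and SI villus overlapped, and the part of depth in which samples a site was called in was not tested.

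Open chromatin was seen at most of these genes. Pooled ATAC peaks lay in the windows of 52 genes (68.4%) in colon, against 68.1% of all genes, of 63 (82.9%) in SI crypts, against 77.8%, and of 64 (84.2%) in SI villi, against 74.4%. Supported ATAC peaks lay in 43 (56.6%) in colon, against 59.7% of all genes, in 60 (78.9%) in SI crypts, against 69.0%, and in 60 (78.9%) in SI villi, against 66.6%. By distinct peaks the genes held 95 in colon, 207 in SI crypts and 214 in SI villi. Supported peaks were found in colon, SI crypt and SI villus for 9, 9 and 9 UGT1A genes, 3, 7 and 7 UGT2 genes, 7, 8 and 7 SULT genes, 16, 19 and 18 ALDH genes, and 8, 17 and 19 CES genes. All 43 genes with a supported colon peak (56.6%) had one in both SI compartments as well, against 56.8% of all genes. Of all genes with a supported colon peak, 12707 of 13348 did so too. A further 14 (18.4%) had one in SI crypts and SI villus but not in colon, against 6.71% of all genes, of which 9 were CES genes (Ces1a, Ces1b, Ces1d, Ces1e, Ces1f, Ces2e, Ces2h, Ces3a and Ces3b), 4 UGT2 genes (Ugt2a1, Ugt2a3, Ugt2b35 and Ugt2b36) and 1 an ALDH gene (Aldh1a7). Aldh1a2, Aldh3a1 and Sult1c2 had one in SI crypt alone (3.95%, against 4.31% of all genes). Aldh8a1, Ces1c and Ces4a had one in SI villus alone (3.95%, against 2.27%). A supported peak was missing in every compartment for 13 genes (17.1%, against 27.0%). Neighbouring genes of a cluster can share a peak, as Ces1a and Ces1b did, so the genes counted here, the 14 included, are not independent.

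The highest pooled ATAC value of each family in colon, SI crypt and SI villus was 6.21, 8.02 and 9.69 for peaks shared by Ugt1a genes, and 5.98 (Ugt2b34), 11.03 (Ugt2b35) and 8.43 (Ugt2b35) for UGT2. It was 9.56 (a peak shared by Sult1d1 and Sult1e1), 13.0 (Sult1c2) and 10.98 (Sult6b1) for SULT, where Sult1e1 encodes the estrogen sulfotransferase. For ALDH it was 12.5 (Aldh1l2), 15.1 (Aldh9a1) and 12.2 (Aldh1l2). For CES it was 12.5 (the peak shared by Ces2b and Ces2c), 13.1 (Ces1g) and 10.9 (a peak shared by Ces1a and Ces1b). In each family but UGT1A, the gene with the highest peak in colon was another one than in SI crypts.

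**Figure D4:**
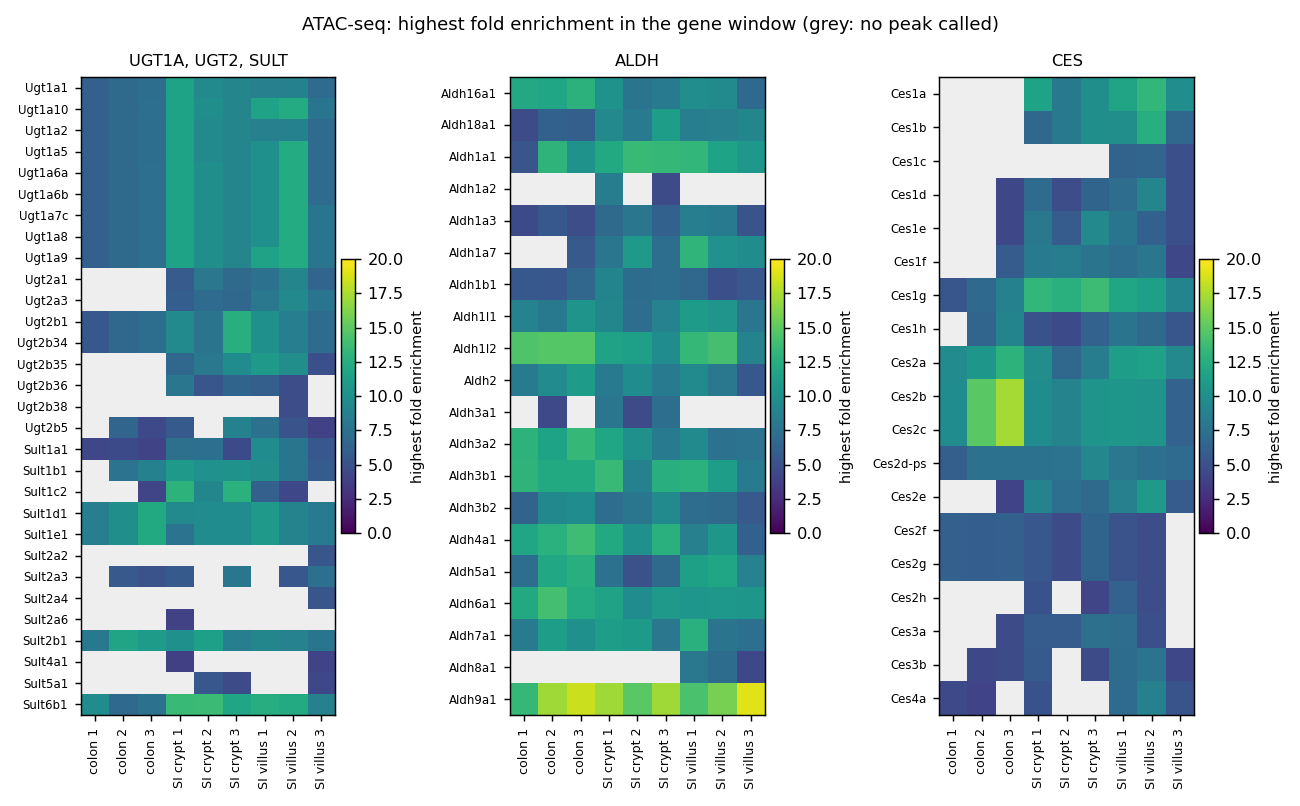
Highest ATAC-seq fold enrichment in the gene window (colour, linear from 0) for the genes with a peak in at least 1 sample, in panels for UGT1A, UGT2 and SULT (left), ALDH (middle) and CES (right), in the 3 colon, 3 SI crypt and 3 SI villus samples, with grey where no peak was called. Ces1a, Ces1b, Ugt2a1, Ugt2a3 and Ugt2b35 are grey in all 3 colon columns and filled in all 6 SI columns, while 16 of the 20 ALDH rows are filled in all 9 columns.

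The limma fit of the ATAC samples held 17459 genes, 65 of them members. For colon over SI crypt, 0 members passed as higher and 13 as lower, where 2.85% of all genes passed as higher and 7.48% as lower. For colon over SI villus, 1 was higher and 13 were lower, against 9.11% and 6.31% of all genes. For SI crypt over SI villus, 0 were higher and 2 lower, against 2.26% and 0.349%. The median log2 difference was -0.57, -0.49 and 0.08 over the 65 members and 0.00, 0.15 and 0.14 over all genes tested. At an unadjusted p under 0.05 limma passed 33 (50.8%), 30 (46.2%) and 8 (12.3%) members, against 28.6%, 35.04% and 17.6% of all genes. Of the members lower in colon than in SI crypts, 5 were CES, 4 UGT2, 2 SULT and 2 ALDH genes. Of those lower than in SI villi, 7 were CES, 3 UGT2 and 3 ALDH genes. Genes that share a peak are counted separately in these numbers. No UGT1A gene passed, with differences of -0.57 to -0.59 for colon over SI crypt and -0.27 to -0.61 for colon over SI villus.

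The largest differences were in the Ces1 and Ugt2 clusters. Ces1a (chr8:95544113-95572091), a Ces1-cluster hydrolase gene, had ATAC peaks in no colon sample, at 11.6, 8.05 and 9.99 in SI crypts and at 11.6, 13.2 and 9.80 in SI villi. The groups did not overlap, and the log2 differences were -3.29 for colon over SI crypt (SE 0.32; limma, adjusted p = 0.000481) and -3.52 for colon over SI villus (SE 0.32; adjusted p = 0.000484). A difference against a group without peaks depends on the value of 1 given there and is not a measured fold. A gene of this kind entered the fit only through the groups with peaks. The constant value also leaves no spread in the group without them, so the p-value is not separate support for the difference. Ces1b, the neighbour of Ces1a, shares one of the Ces1a peaks and had differences of -3.03 and -3.24. Ugt2b35 had no colon peak, values of 6.76, 8.01 and 9.71 in SI crypts and of 10.7, 9.86 and 4.85 in SI villi. Ugt2a1 had none in colon, 5.75, 7.96 and 6.94 in SI crypts and 7.57, 9.09 and 6.51 in SI villi. Ugt2a3, a UGT gene of intestine and liver, had none in colon, 5.99, 6.97 and 6.70 in SI crypts and 8.04, 9.42 and 7.75 in SI villi. These Ugt2 genes lie in one cluster on chromosome 5 with Ugt2b34, which had colon values of 5.54, 6.78 and 7.25, against 9.53, 7.72 and 12.6 in SI crypts and 10.0, 8.59 and 7.04 in SI villi.

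Ces2e, with VDR peaks in all samples, was among the genes with lower ATAC values in colon: 4.04 in 1 of 3 colon samples, 8.96, 7.32 and 6.94 in SI crypts and 8.72, 10.8 and 5.82 in SI villus over the whole window, for log2 differences of -2.27 and -2.36 (SE 0.55 each; limma, adjusted p = 0.0284 and 0.0217). Sult1c2 was lower in colon (4.14 in 1 sample) than in SI crypts (13.0, 9.14 and 12.8), at -2.84 (SE 0.75; limma, adjusted p = 0.0412), and its SI villus values of 6.17 and 4.36 in 2 samples passed in neither comparison of SI villus. Aldh8a1, an enzyme of tryptophan breakdown, had peaks in SI villus only (8.03, 7.05 and 4.36), as did Ces1c (6.33, 6.54 and 4.85), and these were the 2 members lower in SI crypts than in SI villi, at -2.65 and -2.55. Both entered the fit through their SI villus peaks alone, with the value 1 in every other sample. Their calls therefore describe where the peaks lay and do not test it. Aldh3a2, the fatty aldehyde dehydrogenase, was the 1 member higher in colon than in SI villi, with 13.0, 11.6 and 13.3 in colon, against 9.61, 7.55 and 7.61 in SI villi (log2 difference 0.62, SE 0.17; limma, adjusted p = 0.0358). The others called were Ugt2b36, Aldh1a7, Ces1e, Ces1g, Aldh18a1 and Sult6b1 for colon over SI crypt, and Aldh1a7, Ces1d, Ces1e, Ces1g and Aldh18a1 for colon over SI villus, beside Aldh8a1 and Ces1c. Many of these calls were marginal. Under 15 alternatives each, Ces2e kept its call over SI crypt in 8 and over SI villus in 11, Sult1c2 kept it in 7 and Aldh3a2 in 7. Ces1d and Ces1e over SI villus kept theirs in 2 each, and Aldh18a1 in 4 over SI crypt and 0 over SI villus. Aldh18a1, which serves proline synthesis, was at -0.78 and -0.66, but turned to 1.08 for colon over SI villus (limma, adjusted p = 0.206) when only peaks within 1 kb of its start were read.

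The ATAC counts moved with single libraries and with scaling. For colon over SI crypt the 13 became 5 without SI crypt sample 1 or 3, 7 without colon sample 2, 8 without colon sample 1, SI crypt sample 2 or SI villus sample 2, and 23 without SI villus sample 3. For colon over SI villus the 14 became 7 without colon sample 2, 8 without SI villus sample 2 and 9 without SI crypt sample 2. With quantile normalization 21 members (1 higher, 20 lower), 21 (2 higher, 19 lower) and 7 (2 higher, 5 lower) passed in the 3 comparisons, or 32.3%, 32.3% and 10.8%, against 13.5%, 14.3% and 6.22% of all genes. The share of calls over all genes that were higher was then 41.0%, 41.9% and 57.3%, against 27.6%, 59.1% and 86.6% without it, and 47.2%, 74.4% and 79.4% with the same number of peaks taken from each sample. Colon had fewer ATAC peaks per sample, and with that equal number 7, 9 and 1 members passed, or 2 higher and 5 lower, 3 higher and 6 lower, and 1 higher and 0 lower. These were 12.3%, 15.8% and 1.75% of the 57 members that could be tested, against 7.89%, 14.7% and 5.47% of all genes, so that the share for colon over SI villus was near the background. With quantile normalization the median over all genes for SI crypt over SI villus was 0.00, against 0.14, and with equal peak numbers it was 0.11 for colon over SI crypt, against 0.00, and 0.30 for colon over SI villus, against 0.15. Ces1a in both colon comparisons, and Ugt2a3 and Ugt2a1 for colon over SI villus, passed under each alternative that gave them a value (14 for Ces1a and Ugt2a1, which had no test within 1 kb of the start, and 15 for Ugt2a3). Marker lists moved with the compartments too. Of 6 stromal and endothelial markers, 1 in colon, 2 in SI crypts and 4 in SI villi had a supported ATAC peak, with summed fold enrichment of 7.43 to 15.4, 7.60 to 27.2 and 10.3 to 27.6 per sample. Col1a2 was without a peak in every ATAC sample, and Pdgfra, Acta2 and Cdh5 in every colon sample. The immune list summed to 25.9 to 32.5, 23.0 to 29.1 and 15.2 to 37.4. Their part in the result was not tested. Of the crypt and of the villus markers, 4 of 6 each had no peak in any single colon ATAC sample. The crypt list summed to 36.6 to 47.0 in SI crypts and 17.4 to 43.9 in SI villi. The villus list summed to 23.6 to 37.7 in SI crypts and 36.7 to 44.1 in SI villi, so both pairs of ranges overlapped in part. Supported ATAC peaks lay at 6 crypt markers in SI crypts and 4 in SI villi, and at 5 and 6 villus markers.

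**Figure D5:**
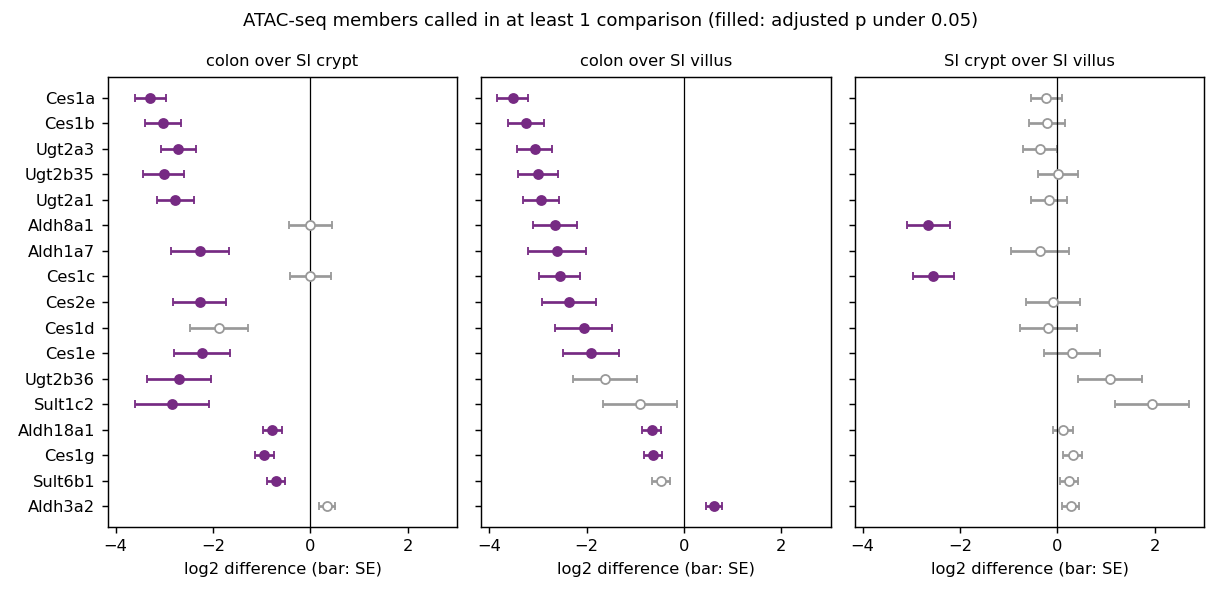
Log2 difference of ATAC fold enrichment (x axis, with SE as bars) for the 17 members that passed limma in at least 1 comparison, in the panels colon over SI crypt, colon over SI villus and SI crypt over SI villus; filled points have an adjusted p under 0.05 and open points do not. Nearly all filled points lie left of 0 in the colon panels, down to -3.29 and -3.52 for Ces1a, and Aldh3a2 is the filled point right of 0.

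VDR peaks and open chromatin coincided in part. Of the distinct VDR peaks of these genes, 30 (34.9%) in colon, 26 (54.2%) in SI crypts and 37 (43.5%) in SI villus overlapped a pooled ATAC peak of the same compartment, against 41.9%, 50.4% and 56.3% of all VDR-binding peaks. Of the supported ones 9 of 16, 5 of 6 and 9 of 12 did, against 58.1%, 67.9% and 74.2% of all supported peaks. The assays came from different mice, of different labelled ages, so no overlap is measured in one sample. Open chromatin was also seen without a VDR peak: Ugt2a1, Ugt2b36, Ces1b and Aldh1a7 had ATAC peaks in the SI and no pooled VDR peak in any compartment.

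Genes that supply or share these reactions were listed as a comparison, 43 in number, of which 42 were found in the annotation. Of these 42, supported VDR peaks lay at 15 in colon, 9 in SI crypts and 17 in SI villi, where 20.3%, 9.91% and 18.5% of all genes had one. Supported ATAC peaks lay at 30, 36 and 35 of the 42, where 59.7%, 69.0% and 66.6% of all genes had one. Ugdh, which makes the UDP-glucuronic acid that UGT enzymes use, had supported VDR peaks in all compartments, with pooled values of 4.92 in colon, 9.65 in SI crypts and 10.7 in SI villi. Papss2, which makes PAPS for the sulfotransferases, had low ones in colon (2.84) and SI crypt (2.60), and Papss1 in SI villi (4.01). Slc35b2, which carries PAPS into the Golgi, had them in colon (3.31) and SI crypt (4.26). Of the retinoid and alcohol enzymes, Adh6a had supported peaks in all 3 compartments (7.82, 5.61 and 5.85), Adh1 (3.05 and 4.30) and Dhrs9 (7.86 and 11.6) in colon and SI villus, Adh7 (4.73), Rdh7 (5.51) and Bco1 (5.79) in colon, and Dhrs3 (11.9) and Cyp26b1 (12.1) in SI villi.

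Of the other conjugating enzymes, Nat1 and Nat2 shared a supported peak in colon (7.57) and SI villus (7.10), and Tpmt had one in SI crypts (8.91) and SI villus (8.35). Of the other hydrolases, Ephx1, the microsomal epoxide hydrolase, reached 10.6 in SI crypts and 18.2 in SI villi, and Ephx2 (5.30) and Pon2 (9.42) had one in SI villi. Among the receptors and factors that regulate these families, Nr1i2, the pregnane X receptor, had supported VDR peaks in all compartments (5.41, 7.14 and 11.3), as did Nfe2l2 (2.68, 4.03 and 5.32). Vdr itself had them in colon (2.75) and SI crypt (3.03), Nr1h4 in colon (2.77) and Nr1i3 in SI villi (3.83). For scale, the known VDR target Cyp24a1 had supported peaks of up to 3.94, 5.44 and 10.3 in colon, SI crypt and SI villus, and Trpv6 of 7.67 in colon and 3.93 in SI villi but none in SI crypts. The Ces2a and Ces2e sites lay above the peaks read for both of these genes in fold enrichment in each compartment. Only peaks within 10 kb of the gene body were read. The paper also lists downstream enhancer peaks of Cyp24a1, which this window may leave out. By −log10 q the order differed in part. Cyp24a1 had 142, 211 and 702 in colon, SI crypt and SI villus, against 207, 309 and 473 for Ces2a and 177, 142 and 365 for Ces2e. Both sites stayed above Cyp24a1 in colon and lay below it in SI villus, while in SI crypt Ces2e alone lay below it.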

How the data were processed

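VDR ChIP-seq (12 samples) and ATAC-seq (9 samples) were read as peak lists, per sample and pooled per compartment. The authors trimmed reads, aligned them to mm9 with Bowtie2 2.2.6, removed duplicates with Picard 2.18.27 and called peaks with MACS2 2.1.0.20150731 (submitters' processing notes), and the composite lists came from merged alignments. Per the file headers the q cutoff was 0.05 and no control library was used. Each deposited list gives a fold enrichment at the summit, the ratio of pileup to local background, which is not comparable across libraries of unlike background without caution. Each list also gives a deposited −log10 q value, which grows with depth. The placement of reads matching several copies is not stated in these sources.

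Genes and windows (body plus 10 kb) came from the mm9 annotation, and 1 bp of overlap counted. A pooled peak was called supported when overlapped by a peak of 2 or more samples of its compartment. No sample lists were identical (0), and 0 per-sample columns were unmatched. For each gene the highest fold enrichment in its window was taken as log2, with 1 where no peak was called, and fitted with limma 3.58.1 (R 4.3.3) per assay over all samples, keeping genes with a peak in at least 2 samples. P-values were adjusted by Benjamini-Hochberg over all genes tested. The Ces2a and Ces2e sites, supported in every compartment, were compared with two-sided exact permutation tests over samples (SciPy 1.17.1). Python 3.11.15, NumPy 2.4.6, pandas 2.3.3, pysam 0.24.0 and matplotlib 3.10.9 were used, sequences were read from the NCBIM37 (mm9) genome, and the scripts were tested on simulated data.

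Genes were named if they had a supported VDR peak, if limma called them in the VDR fit, if they were among the 5 largest ATAC differences called in each direction, if they held the highest pooled ATAC value of a family, or if they had no pooled peak. Partner genes with a supported VDR peak and the targets Cyp24a1 and Trpv6 were named too, and the remaining limma calls are listed for completeness. A partner gene and a marker gene that belong to these lists are not reported here by name. The members and lists were chosen with earlier results of these data known. Replicate numbers were checked for pairing by correlating deviations from group means. VDR SI crypt and SI villus samples of the same number correlated at 0.198, 0.140, 0.306 and 0.140, while the other VDR pairs ran from -0.157 to 0.152. Samples of unlike number were not compared, so these values do not show that samples of one number share an animal. A fit with the replicate number as a block over colon, SI crypt and SI villus left the VDR members called at 0, as without it. Alternatives were another scaling, equal peak numbers, stricter peaks, narrower windows, a replicate block and single samples left out.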

Additional observations from a re-analysis of the deposited data

Results flagged for a closer look

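SI crypt VDR sample 1 lay far from the other samples of its group in 2 measures. It had peaks at 32 of the 76 genes, against 4, 2 and 7 in the other SI crypt samples, with a gap of 0.833 of the group's range. It had 13381 peaks in all, against 2188, 1136 and 2480, with a gap of 0.890, both past the 95% limit of Dixon's test for 4 samples. Of 16 groups tested these were the 2 beyond the limit, and chance gives about 1 in 20. Without this sample the SI crypt genes with a supported VDR peak numbered 3, against 6.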

How the results depend on the processing

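Depth and calling limit these results: a sample without a called peak may still hold binding below the q cutoff, fold enrichment comes with no counts, and 4 against 4 or 3 against 3 samples give few possible p-values. Of the counts recomputed while leaving out 1 sample, 69 stayed within 1.5 times and 15 did not. Under the other alternatives 58 did and 23 did not. The ATAC members called were 13, 14 and 2 for colon over SI crypt, colon over SI villus and SI crypt over SI villus. They became 21, 21 and 7 with quantile normalization, 7, 9 and 1 with the same number of peaks, 7, 7 and 0 with a −log10 q of 5 or more, and 5, 9 and 3 with peaks within 1 kb of the start. The shares of all genes called, 10.3%, 15.4% and 2.61% at first, were then 13.5%, 14.3% and 6.22%, 7.89%, 14.7% and 5.47%, 6.70%, 10.7% and 2.28%, and 7.04%, 15.3% and 4.14%, with 65, 57, 61 and 37 members tested. With the replicate block they became 6, 8 and 0 (5.90%, 6.74% and 0% of all genes), although same-numbered ATAC samples did not deviate together (correlations of -0.0695 to 0.0460). The replicate block left the VDR members called at 0. Leaving out 1 sample, the ATAC calls ranged from 5 to 23, 7 to 19 and 2 to 3, with 5 for colon over SI crypt without SI crypt sample 1 or 3, 23 without SI villus sample 3, and 7 for colon over SI villus without colon sample 2. The shares of all genes called ranged from 5.45% to 15.0%, 4.81% to 19.5% and 1.40% to 4.72%. The VDR calls ranged from 0 to 0, 0 to 2 and 0 to 0, with 2 without colon sample 1, where 1.77% of all genes were called. The genes with a pooled VDR peak, 38, 33 and 42 in colon, SI crypt and SI villus, were 22, 6 and 19 when the peak was called in 2 or more samples, which ranged over single samples left out from 20 to 22, 3 to 6 (without sample 1 or 4) and 3 to 19 (3 without sample 1). The supported ATAC genes ranged from 37 to 43, 53 to 60 and 53 to 59. VDR peaks in ATAC peaks were 9, 5 and 9 for supported peaks only, and 8 in SI crypt with 50% of the peak covered. An added alternative, DR3 with 1 mismatch, gave 5, 2 and 5 summits. Of 421 recomputed values for 29 named ATAC calls, 274 kept the call, 146 lost it and 1, Aldh18a1 for colon over SI villus, turned to 1.08 within 1 kb of the start. The cause of these shifts was not tested.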
